A study of Mus musculus with 14 samples.

Results

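Endothelial cells line blood vessels, and 10 of their genes were followed in mouse neck skin during dermatitis: Pecam1, Cdh5, Kdr, Vwf, Plvap, Sele, Selp, Vcam1, Icam1 and Ackr1. They were taken by symbol from a table of 35327 genes, all 10 were found, and all 10 passed the filter on low counts that left 20939 genes. The list covers endothelial identity and the adhesion of leukocytes to the vessel wall. Polyadenylated RNA from 14 libraries was counted per gene, with 1 mouse per library by the study's design text. All mice were labelled female and C57BL/6J.

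The untreated group (n = 2) was wild-type skin at 6 weeks of age, with no MC903 and no injection named in its label. Every other group received MC903 on shaved neck skin, daily for 6 days, as 100 µL holding 1 nmol. MC903 is calcipotriol, a vitamin D analogue that causes a dermatitis. The isotype group (n = 3) and the MAR1 group (n = 3) were wild-type mice of 6 weeks that were also injected into the peritoneum every other day, with 20 µg of a control antibody or of MAR1, and with 3 injections before MC903 began. MAR1 binds the alpha chain of the high-affinity IgE receptor. The fl/fl group (n = 3) carried Il4rafl/fl, a floxed gene for the alpha chain of the IL-4 and IL-13 receptors, and the cKO group (n = 3) carried Pdgfra-CRE with Il4rafl/fl. Both were 6 to 7 weeks old and received MC903 without injections. The Cre is driven by Pdgfra, a gene known from fibroblasts and other mesenchymal cells rather than from endothelium. The names of the 2 untreated libraries differ only by a suffix, and a vehicle is mentioned for the study but not for these libraries.

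Leukocytes leave the blood in steps. Selectins on activated endothelium catch rolling cells, chemokines displayed on the vessel wall activate leukocyte integrins, and the integrins then bind ICAM-1 and VCAM-1 so that the cells stop and pass between endothelial cells. In skin these events take place mainly in postcapillary venules, and inflammatory signals that act through NF-kB raise E-selectin, VCAM-1 and ICAM-1 there. Pecam1 encodes the junction molecule CD31, which platelets and leukocytes carry as well. Cdh5 encodes VE-cadherin, the adherens junction protein of endothelium, and Kdr encodes VEGF receptor 2. Vwf encodes von Willebrand factor, which is stored with P-selectin in endothelial granules and in platelets. Plvap forms the diaphragms of capillary and venular openings. Sele and Selp encode E-selectin and P-selectin, Vcam1 and Icam1 the integrin ligands, and Ackr1 a chemokine-binding receptor of venules.

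Promoter sequences were matched by symbol in RefSeq (GRCm38.p6, an older build than the GRCm39 that the submitters' processing notes name), and 5 of the 10 genes matched. The windows of 250 bases before the transcript start are shown for Sele and Selp, the selectin genes described first below, and for Icam1 and Ackr1, which carry calls described later. Kdr also matched and carries a call, but its window is not shown. Capitals mark matches, on either strand, to GGNNTTNCC (NF-kB-like) or AGGAAG (ETS-like, the core bound by a factor family active in endothelium). Each is written 5′ to 3′ on the strand of its gene.
Sele, chr1:164047984-164048233, plus strand: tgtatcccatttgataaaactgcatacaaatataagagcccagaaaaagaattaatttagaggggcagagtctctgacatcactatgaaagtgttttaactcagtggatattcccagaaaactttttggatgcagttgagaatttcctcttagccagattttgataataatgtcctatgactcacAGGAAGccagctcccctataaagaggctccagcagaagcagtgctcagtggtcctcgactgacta
Selp, chr1:164115014-164115263, plus strand: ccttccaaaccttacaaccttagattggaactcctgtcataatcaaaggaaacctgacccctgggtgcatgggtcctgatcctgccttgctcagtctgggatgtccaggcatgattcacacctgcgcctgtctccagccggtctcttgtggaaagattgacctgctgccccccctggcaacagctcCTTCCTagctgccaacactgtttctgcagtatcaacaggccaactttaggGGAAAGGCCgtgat
Ackr1, chr1:173333504-173333753, minus strand: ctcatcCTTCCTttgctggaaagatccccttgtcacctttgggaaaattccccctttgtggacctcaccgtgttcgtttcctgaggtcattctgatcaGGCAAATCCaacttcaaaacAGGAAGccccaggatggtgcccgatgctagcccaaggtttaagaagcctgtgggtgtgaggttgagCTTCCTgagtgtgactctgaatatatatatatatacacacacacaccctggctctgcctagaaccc
Icam1, chr9:21015690-21015939, plus strand: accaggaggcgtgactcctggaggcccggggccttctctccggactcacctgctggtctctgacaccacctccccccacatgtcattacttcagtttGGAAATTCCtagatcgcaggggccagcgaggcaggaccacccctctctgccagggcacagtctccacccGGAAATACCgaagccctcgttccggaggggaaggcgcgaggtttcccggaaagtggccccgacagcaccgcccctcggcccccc
The NF-kB-like letters were found 2 times before Icam1, at 153 and 84 bases from the start, 1 time each before Selp and Ackr1, and not in the Sele window. The bases after that Icam1 start were found in 0 of the Icam1 transcripts searched, so its distances rest on the RefSeq start. In the Kdr window the NF-kB-like letters were found 1 time, at 119 bases, and the ETS-like letters 0 times. The NF-kB-like letters occur in 13.5% of 32851 windows of the same length. The ETS-like letters were found 1 time each before Sele and Selp and 3 times before Ackr1, against 29.5% of windows. The letters AGATAA, a core bound by blood and vessel factors, were in none of the 4 windows and in 9.99% of all. The motifs do not overlap each other in these windows. A match is a description of the letters, and no binding was measured. Other spellings of such sites were not searched, so a window without a match may still hold a site.

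The libraries differed in ways that touch these genes. Totals were 34.3 to 55.3 M counts (mega) in the untreated, isotype and fl/fl groups, 16.5 to 30.8 M in cKO and 5.73 to 10.6 M in MAR1. Olfactory and vomeronasal receptor genes, which are genes of the nose, took 0.0479% to 0.438% of counts in the untreated, isotype and fl/fl libraries, 0.466% to 2.58% in cKO and 3.87% to 9.36% in MAR1. Mitochondrial transcripts took 0.129% to 0.344% of counts in MAR1, against 2.12% to 2.33% with isotype. What the reads on receptor genes are was not tested, so CPM values of the MAR1 libraries may hold reads that are not from skin transcripts. Transcripts of other tissues stood high in the fl/fl group: B cell markers (7 genes) summed to 2110, 424 and 3 CPM (counts scaled to the TMM-adjusted library size) in fl/fl libraries 1, 2 and 3, and salivary gland markers to 1410, 20600 and 10.8 CPM. Red blood cell markers (7 genes) summed to 16200, 3280 and 2410 CPM there, against 65.3 to 224 with isotype and 601 to 1400 in untreated skin. Skeletal muscle markers (8 genes) summed to 56200, 14900 and 9470 CPM, against 1100 to 1530 with isotype and 1720 to 12000 in untreated skin. The part of blood or muscle in the vessel genes was not tested. Y-linked Ddx3y was at 69.9 CPM in cKO library 1 and at most 0.781 CPM in every other library, although all mice were labelled female. The deleted gene, Il4ra, stood at 215, 145 and 176 CPM in fl/fl and at 70.7, 67.9 and 14.5 CPM in cKO, so the cKO libraries lay below. It was also low in MAR1, where it is not deleted, at 45.8, 23.3 and 8.95 CPM against 179 to 196 with isotype, so a low level alone does not show the deletion. Keratinocyte markers (7 genes) summed to 3280 CPM or more in each library, as the skin label implies. Between the untreated libraries the counts differed by a chi-square of 304.4 per degree of freedom. The values were 53.51 to 79.57 between isotype, 17.32 to 97.59 between MAR1, 174.7 to 279.7 between cKO and 484.9 to 984.9 between fl/fl libraries. The untreated libraries were kept as 2 samples. These values cannot show whether they came from separate mice, because repeat libraries of 1 mouse were not compared.

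**Figure D1:**
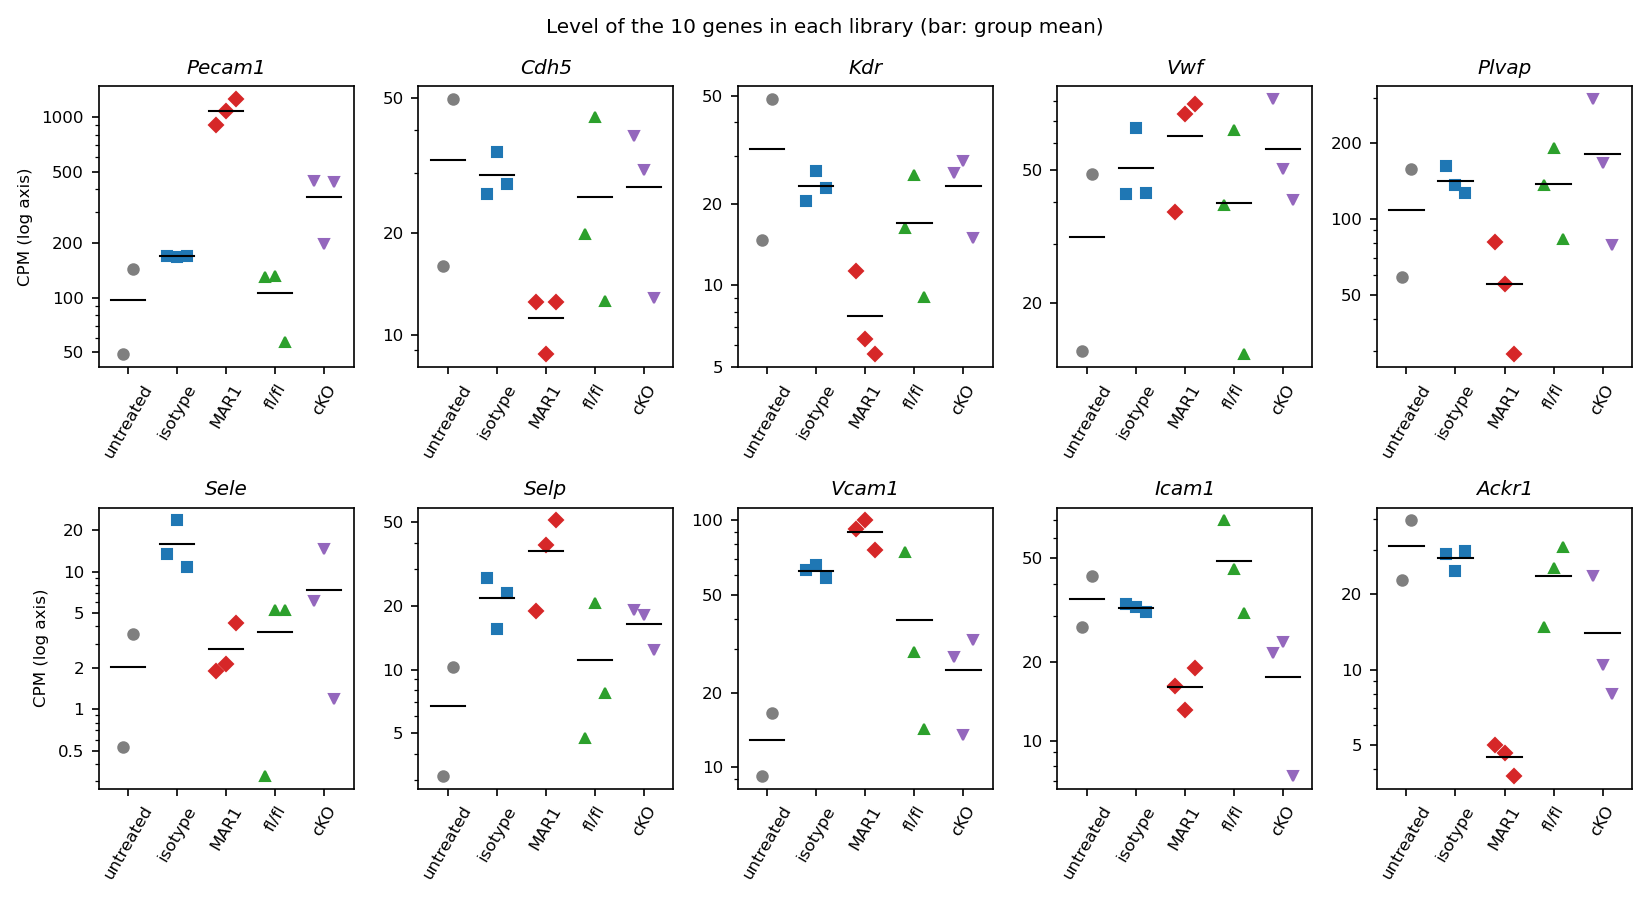
Level of each of the 10 genes in each library, in CPM on a log axis, by group (untreated n = 2, other groups n = 3); points are libraries and bars are group means. Pecam1 is highest in the MAR1 libraries at 908 to 1264 CPM, while Ackr1 is lowest there at 3.76 to 4.98 CPM.

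All 10 genes were detected in every library, with a lowest count of 12 for Sele in fl/fl library 1. Cdh5 marks endothelium most narrowly in this list. It stood at 16 and 49.6 CPM in untreated skin, 26, 34.6 and 27.8 with isotype, 12.5, 8.76 and 12.5 with MAR1, 19.8, 43.8 and 12.6 in fl/fl, and 38.5, 30.7 and 12.8 in cKO. The MAR1 libraries lay below every other library, though fl/fl library 3 and cKO library 3 came close, and the remaining groups overlapped. The untreated pair thus differed by about as much as any groups did. In bulk tissue, fewer endothelial cells and less RNA per cell cannot be told apart. Kdr and Plvap varied with Cdh5 across the 14 libraries (Pearson r of log2 CPM 0.923 and 0.826), while Pecam1 did not (r = -0.389). These values are descriptions over libraries that share groups and scaling. Over 16693 genes averaging 1 CPM or more, the 5 outside the list whose pattern was most like Cdh5 were Zdhhc17 and Fbln5 (r = 0.926 each), Robo4 (0.92), Sptbn5 (0.9) and Pdgfrb (0.894). For Sele they were B3gat2 (0.902), Gk5 (0.897), Vmn2r97 (0.86), Rapgef5 (0.856) and Gpnmb (0.849). Robo4 is an endothelial guidance receptor and Pdgfrb the pericyte receptor for PDGF.

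The comparison of MC903-treated control skin with untreated skin asks how vessel genes differ between them. Besides MC903, the isotype mice received injections, and the fl/fl mice differed in genotype and age range. In these comparisons such differences cannot be told apart from an effect of MC903. The adhesion genes Sele, Selp and Vcam1 had the largest positive differences among the 10 in the isotype arm, but no member passed the threshold (0 of 10 at an adjusted p under 0.05 in edgeR, against 3.08% of all genes tested). At an unadjusted p under 0.05 there were 3 in the isotype arm and 1, Vcam1, in the fl/fl arm. In fl/fl against untreated skin 0 of 10 were called as well, against 1.72% of all genes. These comparisons share the untreated libraries.

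Vcam1 was the nearest to a call. It stood at 9.23 and 16.6 CPM in untreated skin, at 62.8, 65.8 and 58.6 with isotype, and at 74.5, 29.3 and 14.3 in fl/fl. Every isotype library lay above both untreated ones, whereas fl/fl library 3 did not. The log2 fold change was 2.28 ± 0.59 (SE) in the isotype arm (edgeR, adjusted p = 0.053) and 1.61 ± 0.57 in the fl/fl arm (adjusted p = 0.16). In the isotype arm Vcam1 passed with DESeq2 (adjusted p = 0.0034), with no filter on low counts (0.047), with only the compared groups in the fit (0.0042) and without fl/fl libraries 1 and 2 (0.0051). It also passed without fl/fl library 1 (0.011), fl/fl library 3 (0.0096) or cKO library 2 (0.038), although none of these belongs to the contrast. Each of these fits, and that without fl/fl libraries 1 and 2, took a MAR1 library as the TMM reference instead of cKO library 2. In these fits the log2 fold changes of all genes moved up by a median of 0.23 to 0.32. Over all its alternatives Vcam1 was the member called in the isotype arm whenever 1 was.

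Sele and Selp, the selectin genes, showed the same direction in the isotype arm. Sele was at 0.532 and 3.54 CPM in untreated skin and at 13.4, 23.6 and 10.7 with isotype, with no overlap. Its log2 fold change was 2.97 ± 1.22 (adjusted p = 0.22). Selp was at 3.14 and 10.3 CPM in untreated skin and at 27.1, 15.7 and 23 with isotype, again without overlap, with 1.71 ± 0.66 (adjusted p = 0.19). In fl/fl skin Sele was at 0.328, 5.29 and 5.26 CPM and Selp at 4.72, 20.8 and 7.74, and both ranges overlapped the untreated one. Icam1, the other integrin ligand, stood at 27.4 and 42.7 CPM in untreated skin and at 33.3, 32.6 and 31.2 with isotype, inside the untreated range. By levels alone, 4 of 10 members lay wholly apart between isotype and untreated libraries, all higher with isotype (Pecam1, Sele, Selp and Vcam1), and so did 48.9% of all genes. Between fl/fl and untreated libraries 0 of 10 lay apart, against 28% of all genes.

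**Figure D2:**
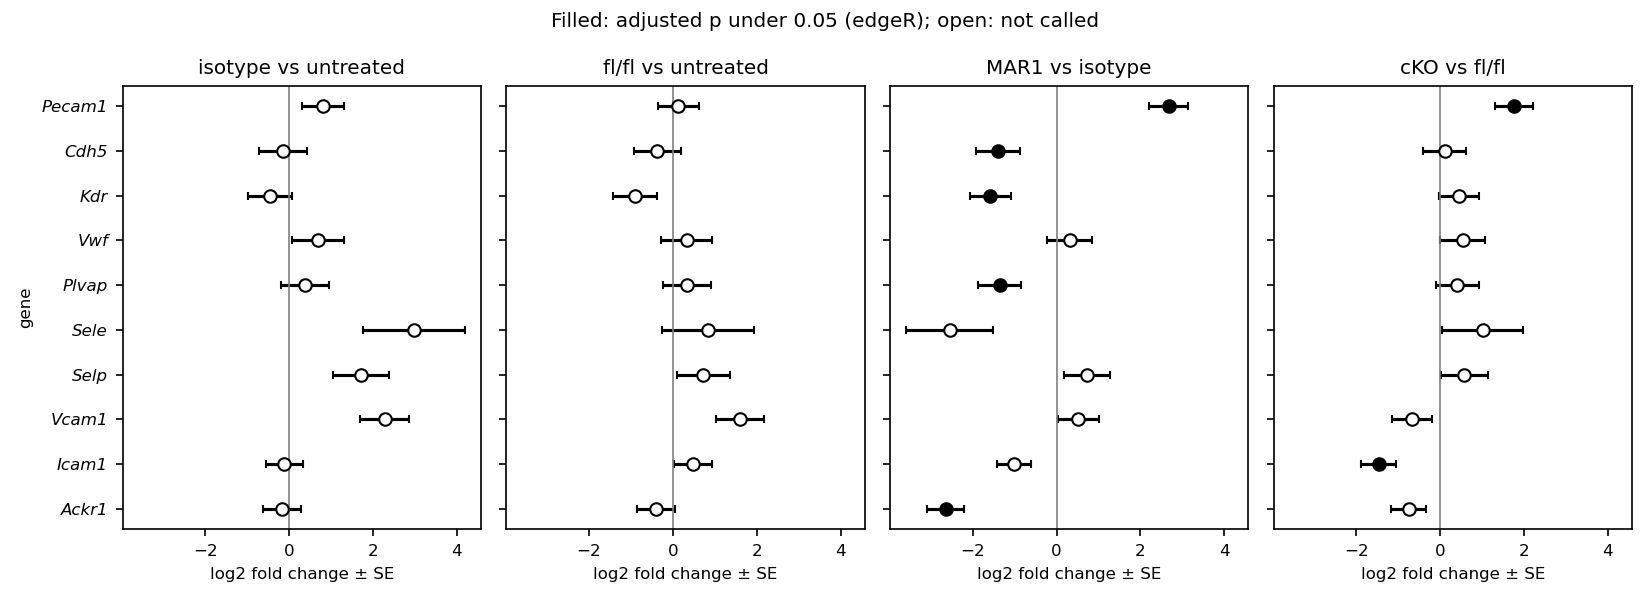
Log2 fold change with its SE for the 10 genes in 4 comparisons; filled points passed an adjusted p under 0.05 in edgeR. Calls are seen only in MAR1 against isotype (5) and cKO against fl/fl (2), with Pecam1 higher in each.

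Since Cdh5 differed so much between the untreated libraries, each gene was also set against Cdh5 in its own library, which removes the library scaling. Such a ratio is compared between libraries only, because gene lengths were not used. In both MC903-treated control arms, 4 of the 9 other members had ratios above both untreated libraries in all 3 libraries, namely Vwf, Plvap, Selp and Vcam1, a pattern that 2.46% of all genes shared. Selp per Cdh5 was 0.197 and 0.207 in untreated skin, 0.238 to 0.615 in fl/fl and 0.452 to 1.04 with isotype. Vcam1 per Cdh5 was 0.334 and 0.579 in untreated skin, 0.668 to 3.76 in fl/fl and 1.9 to 2.42 with isotype. Vwf per Cdh5 was 0.896 and 0.978 in untreated skin, 1.11 to 1.97 in fl/fl and 1.53 to 1.93 with isotype. For these 3 genes no MC903-treated control library fell into the untreated range. Plvap, the diaphragm gene, stood close to it, with 3.18 and 3.69 in untreated skin and 3.93 to 6.88 in the 6 control libraries. The ratio of Kdr went the other way, at 0.918 and 0.985 in untreated skin against 0.585 to 0.824 in the same 6 libraries. Sele per Cdh5 was 0.0333 and 0.0713 in untreated skin and 0.386 to 0.682 with isotype, but 0.0165, 0.121 and 0.418 in fl/fl, where library 1 lay below both untreated libraries. In all, 7 of 9 ratios lay apart in the isotype arm (28.3% of all genes) and 5 of 9 in the fl/fl arm (8.8% of all genes). Cdh5 stood at 16 and 49.6 CPM in the untreated libraries. A gene that does not vary with Cdh5 therefore has a wide range of untreated ratios and can seldom lie apart. By levels the shares of all genes were 48.9% and 28%, so the contrast with the members depends on the choice of Cdh5 as divisor. These counts are descriptions, and with 2 untreated libraries a one-sided exact permutation test of 3 against 2 could not go below 0.1.

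**Figure D3:**
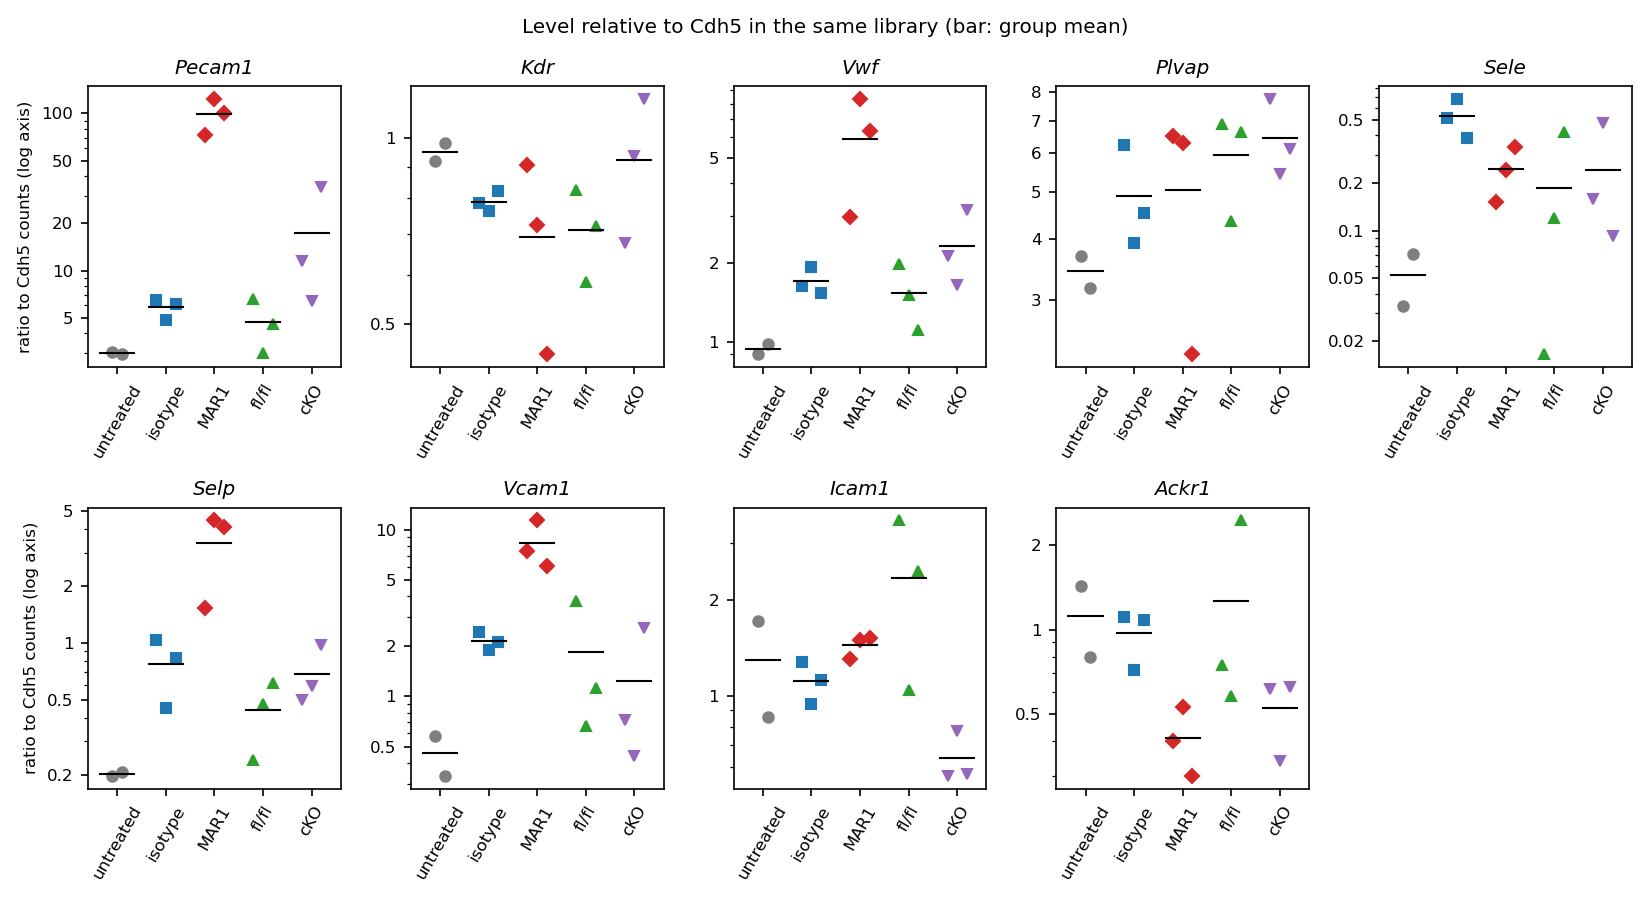
Counts of 9 genes divided by the counts of Cdh5 in the same library, on a log axis, by group (untreated n = 2, other groups n = 3); points are libraries and bars are group means. Selp, Vcam1 and Vwf sit above the untreated pair in all isotype and fl/fl libraries, and the Pecam1 ratio reaches 72.9 to 124 with MAR1.

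The fl/fl and isotype arms, which differ in genotype, injections and experiment, gave 0 of 10 calls against each other (5.22% of all genes; 0 members at an unadjusted p under 0.05). The ranges of 2 members lay apart, Pecam1 and Sele, both lower in fl/fl, against 32.5% of all genes. Relative to Cdh5, 0 of 9 ratios lay apart (18.2% of all genes).

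Inducers, partners and other vascular genes were counted from lists. Of 16 inducers of endothelial adhesion genes, 1 rose in isotype against untreated skin, Il6 (5.71-fold, adjusted p = 0.037). In fl/fl against untreated skin edgeR called 0 of the 16, with 1 at an unadjusted p under 0.05. That gene was also Il6, with a similar rise (5.46-fold, edgeR, adjusted p = 0.054). Of 12 leukocyte ligands of the adhesion members, 1 rose with isotype, Cd44 (3.71-fold, adjusted p = 0.026), the hyaluronan receptor that also binds E-selectin. Of 22 further endothelial identity genes edgeR called 0 in either arm (0 and 1 at an unadjusted p under 0.05), with a median log2 fold change of 0.08 with isotype and -0.07 in fl/fl, against 0.11 and 0 over all genes. Among 12 other adhesion and junction genes 2 fell with isotype, Cd34 (5.9-fold, adjusted p = 0.011), a sialomucin of endothelium and fibroblasts, and Cd99l2 (2.69-fold, adjusted p = 0.049). Dermal fibroblast markers, of which Cd34 is not a listed member, summed to 12400 and 19300 CPM in untreated skin and to 3620 to 4330 with isotype, and their part in the fall of Cd34 was not tested. Of the 12 endothelial growth factors and regulators edgeR called 0 in either arm, with 3 at an unadjusted p under 0.05 with isotype and 0 in fl/fl.

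The antibody comparison asks what MAR1 changed within MC903-treated skin. Pecam1 rose 6.4-fold while Cdh5, Kdr, Plvap and Ackr1 fell 2.56-fold to 6.24-fold. Thus 5 of 10 members were called, 1 higher and 4 lower, against 49% of all genes tested, so the share called was near that of the whole table. With RLE scaling, which shifted the whole table by a median log2 value of 0.59, 1 rose and 1 fell, Pecam1 and Ackr1.

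Ackr1, which binds inflammatory chemokines on venules, fell the most. It stood at 29, 24.9 and 29.9 CPM with isotype and at 4.98, 4.63 and 3.76 with MAR1, from 58, 46 and 25 counts. The groups were far apart, and every MAR1 library lay below all 11 others. The log2 fold change was -2.64 ± 0.44 (edgeR, adjusted p = 0.00053), and -2.07 with RLE scaling. Relative to Cdh5 it stood at 0.719 to 1.11 with isotype and at 0.301 to 0.529 with MAR1, so the fall went beyond that of Cdh5 in each library.

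Pecam1 moved in the opposite direction from Cdh5, Kdr and Plvap. It stood at 170.1, 168 and 171 CPM with isotype and at 908, 1087 and 1264 with MAR1. The log2 fold change was 2.68 ± 0.47 (adjusted p = 0.00066). Per Cdh5 it was 4.86 to 6.54 with isotype and 72.9 to 124 with MAR1, and the 3 MAR1 libraries lay above every other library. Across groups the order of mean level was MAR1, cKO, isotype, fl/fl and untreated, with 1086 ± 178, 359.7 ± 140, 169.8 ± 1.39, 106 ± 42.4 (SD, n = 3 each) and 96.9 ± 68.2 CPM (n = 2). Fl/fl and untreated did not differ beyond their spread. The order of Pecam1 within the MAR1 group, 908, 1087 and 1264, is that of the receptor gene share, 3.87%, 7.54% and 9.36%. With that share as a covariate the log2 fold change was 0.48 (adjusted p = 0.9), and the fit then called 0 of all genes in this comparison. The share and the group cannot be told apart in that fit. Platelets share CD31, P-selectin and von Willebrand factor with endothelium. Platelet markers (8 genes) summed to 198, 117 and 81.6 CPM in MAR1 libraries 1, 2 and 3, and to 97.4 to 135 with isotype. T cell markers (8 genes) summed to 178, 242 and 309 CPM in the same MAR1 libraries, against 23 to 34.1 with isotype. B cell markers summed to 86.8, 147 and 202 CPM there, against 9.28 to 13.6 with isotype. The part of platelets or leukocytes in the level of Pecam1 was not tested.

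**Figure D4:**
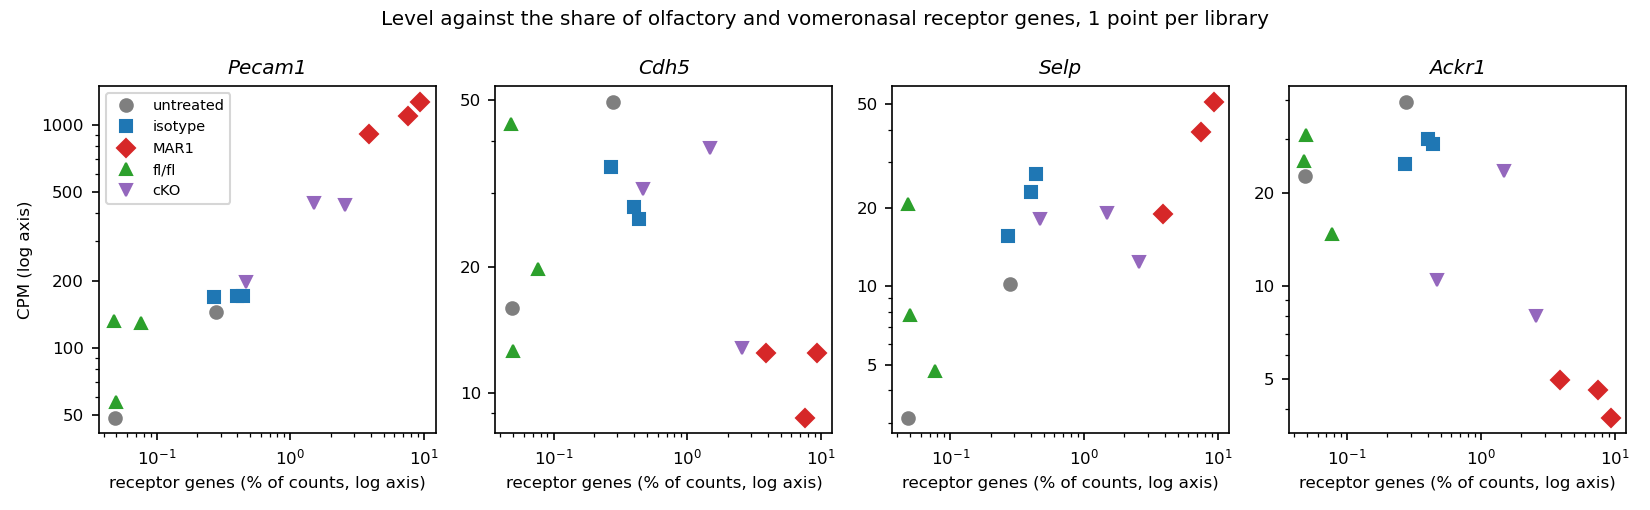
Level of Pecam1, Cdh5, Selp and Ackr1 in CPM against the share of counts in olfactory and vomeronasal receptor genes, both on log axes, with 1 point per library of 14. The 3 MAR1 libraries hold the highest shares (3.87% to 9.36%), the highest Pecam1 and the lowest Ackr1.

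The junction and growth factor receptor genes lay lower with MAR1. Cdh5, with the levels given above, had a log2 fold change of -1.39 ± 0.52 (adjusted p = 0.04). Kdr was at 20.4, 26.4 and 22.8 CPM with isotype and at 11.3, 6.34 and 5.56 with MAR1, a change of -1.58 ± 0.49 (adjusted p = 0.017). Plvap was at 162, 136 and 126 CPM with isotype and at 81.2, 55.2 and 29 with MAR1, a change of -1.36 ± 0.52 (adjusted p = 0.043). None of the 3 overlapped between the groups. All 3 calls were lost with RLE scaling and with DESeq2, and Cdh5 and Plvap were also lost after thinning to the shallowest library, so their fall is relative to the TMM scale.

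The stored and induced adhesion genes lay on both sides of the isotype levels. Vwf was at 42.3, 66.8 and 42.6 CPM with isotype and at 37.2, 73.3 and 78.7 with MAR1. Selp was at 27.1, 15.7 and 23 with isotype and at 18.9, 39.1 and 51.1 with MAR1. Both ranges overlapped, and neither gene was called (adjusted p = 0.63 and 0.28). In both, MAR1 library 1 stood below MAR1 libraries 2 and 3, as it did in the receptor gene share. Sele was at 13.4, 23.6 and 10.7 CPM with isotype and at 1.89, 2.11 and 4.21 with MAR1, from 21 to 28 counts there, and did not overlap (-2.55 ± 1.03, adjusted p = 0.054). Icam1 was at 33.3, 32.6 and 31.2 CPM with isotype and at 16.2, 13.1 and 18.9 with MAR1, also without overlap (-1.01 ± 0.41, adjusted p = 0.055). Vcam1 stood at 58.6 to 65.8 CPM with isotype and 75.8 to 100.1 with MAR1, apart but uncalled (adjusted p = 0.37). In all, 8 of 10 members had ranges apart, 2 higher and 6 lower, against 68.6% of all genes, and 7 of 9 ratios to Cdh5 lay apart, against 63% of all genes.

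Other vascular genes were counted in the same contrast. Of 22 further endothelial identity genes, 9 fell and 1 rose, beside the 49% of all genes called, with a median log2 fold change of -0.92 against 0 over all genes. Markers of other skin cells also moved. Keratinocyte markers summed to 19300 to 37200 CPM with isotype and 3280 to 6700 with MAR1 (6 of 7 fell). Of 9 dermal fibroblast markers 5 fell and 2 rose, Pi16 (4.53-fold, adjusted p = 0.0016) and Sfrp2 (3.74-fold, 0.035). Of 8 macrophage markers 5 fell. The part of these cells in the vascular falls was not tested. With RLE scaling 7 of the 22 identity genes fell and 2 rose. Those that fell included the transcription factor genes Erg (16.3-fold, adjusted p = 0.0019) and Sox17 (11.3-fold, 0.00085), and the receptor genes Tie1 (5.11-fold, 0.0025) and Eng (5.56-fold, 0.0022). Fli1, an ETS factor gene also used by blood cells, rose 4.44-fold (adjusted p = 0.0029). Of 12 arterial, venous and capillary genes, 5 fell, with Gpihbp1 of capillaries at 6.52-fold (adjusted p = 0.0021) and Gja4 of arteries at 5.4-fold (0.0011), and 2 rose, with the venous factor gene Nr2f2 at 3.06-fold (0.00094) and Gja5 at 6.46-fold (0.0083). Of 12 growth factors and regulators, 5 fell, with Angptl4 at 16.8-fold (adjusted p = 0.00029) and Vegfa, the ligand of the Kdr product, at 6.6-fold (5e-04), and 1 rose, Angpt2 (2.04-fold, 0.03), the Tie2 ligand released by activated endothelium. Of 10 mural cell markers 4 fell and 1 rose.

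The partners of the adhesion genes were called at shares near the 49% of all genes, with 5 of 12 ligands and 9 of 16 inducers. Of the ligands 4 fell, with the beta-2 integrin chain gene Itgb2 at 15.5-fold (adjusted p = 0.0014) and Itgb1 at 6.29-fold (0.00039), and 1 rose, Itga4 (11.9-fold, 0.0062), which encodes the alpha chain of the VCAM-1 receptor. Macrophage markers, with 5 of 8 lower, and T cell markers, with 3 of 8 higher and 1 lower, moved beside them, and their part was not tested. Of the inducers 7 fell, with the TNF receptor gene Tnfrsf1a at 37.4-fold (adjusted p = 3e-04), Il1r1 at 6.43-fold (0.00036), the inhibitor gene Nfkbia at 3.06-fold (0.0042) and the NF-kB subunit gene Rela at 3.1-fold (0.0013). The 2 that rose were Il6 (4.06-fold, 0.005) and Ifng (19.8-fold, 0.016). Of 12 other adhesion and junction genes 3 rose and 3 fell, and 5 rose and 1 fell with RLE scaling. Every one of these list counts was 0 with the receptor gene share as a covariate.

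The genotype comparison asks what loss of Il4ra in Pdgfra-expressing cells changed in MC903-treated skin without injections. Pecam1 was 3.39-fold higher and Icam1 2.77-fold lower in cKO than in fl/fl skin. These were 2 of 10 members called, against 18.7% of all genes tested, a share near that of the whole table. The identity genes Cdh5, Kdr, Vwf and Plvap and the selectin genes had adjusted p-values of 0.48 to 0.91.

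Icam1 stood at 70.1, 45.4 and 30.9 CPM in fl/fl and at 21.6, 23.9 and 7.32 in cKO. The ranges did not overlap, and the log2 fold change was -1.47 ± 0.41 (edgeR, adjusted p = 0.026). Within fl/fl, Icam1 followed the B cell marker sum given above, highest in library 1 and lowest in library 3. Without fl/fl library 1 the change was -0.76 (adjusted p = 0.23), and without fl/fl libraries 1 and 2, which leaves 1 fl/fl library whose spread is taken from the other groups, it was -0.53 (0.55). The part of B cells or lymph node tissue in the level of Icam1 was not tested. The call was also lost without cKO library 2 (0.057), cKO library 3 (0.069), untreated library 2 (0.085) or MAR1 library 2 (0.1). Relative to Cdh5, Icam1 stood at 1.04 to 3.54 in fl/fl and at 0.562 to 0.778 in cKO, and it was the only member of 9 whose ratios lay apart, against 17.8% of all genes. Fl/fl library 3 had 2.45, above each cKO library. Its B cell (3 CPM), T cell (11.3) and salivary gland (10.8) marker sums lay below each cKO library. Its lymph node (293 CPM), red blood cell (2410) and skeletal muscle (9470) marker sums lay above each cKO library. The part of such tissue in its Icam1 level was not tested. By levels, 2 of 10 members lay apart, Icam1 lower and Pecam1 higher, against 29.4% of all genes.

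Pecam1 stood at 129.7, 131.5 and 57.2 CPM in fl/fl and at 443.8, 198 and 437.5 in cKO, with no overlap. The log2 fold change was 1.76 ± 0.45 (adjusted p = 0.016). The cKO library with the lowest receptor gene share, library 2 at 0.466%, had the lowest Pecam1 of that group. Library 3, with the highest share (2.58%), stood slightly below library 1 (1.49%), so the order did not follow the share throughout. Without cKO library 3 the change was 1.6 (adjusted p = 0.058), with only the compared groups in the fit 1.93 (0.052), without fl/fl libraries 1 and 2 it was 2.95 (0.05), just above the threshold, and with the receptor gene share as a covariate it was -0.62 (0.85). Its ratio to Cdh5 overlapped between the groups, at 3 to 6.55 in fl/fl and 6.45 to 34.1 in cKO.

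Vcam1 and Ackr1 varied within the groups more than between them. Vcam1 stood at 74.5, 29.3 and 14.3 CPM in fl/fl, in the order of the B cell and lymph node marker sums, and at 27.9, 13.5 and 32.8 in cKO (adjusted p = 0.34). Lymph node high endothelial and stromal markers (9 genes) summed to 1170, 355 and 293 CPM in fl/fl and to 40 to 85.6 in cKO. Follicular dendritic cells and lymph node stroma also carry VCAM-1 and ICAM-1, and the part of such tissue in the fl/fl levels was not tested. Ackr1 stood at 14.8, 25.4 and 30.9 CPM in fl/fl and at 23.6, 10.5 and 8.01 in cKO (adjusted p = 0.2). Without cKO library 1, the library with Y-linked transcripts, Ackr1 was lower in cKO by a log2 change of -1.36 (adjusted p = 0.035). Plvap was at 298.6, 166.5 and 78.4 CPM in cKO against 136.3, 190.5 and 83.4 in fl/fl, and cKO library 1 stood highest of all 14 libraries. Sele was at 6.13, 14.7 and 1.18 CPM in cKO and Selp at 19.1, 18.1 and 12.4, inside or across the fl/fl ranges.

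**Figure D5:**
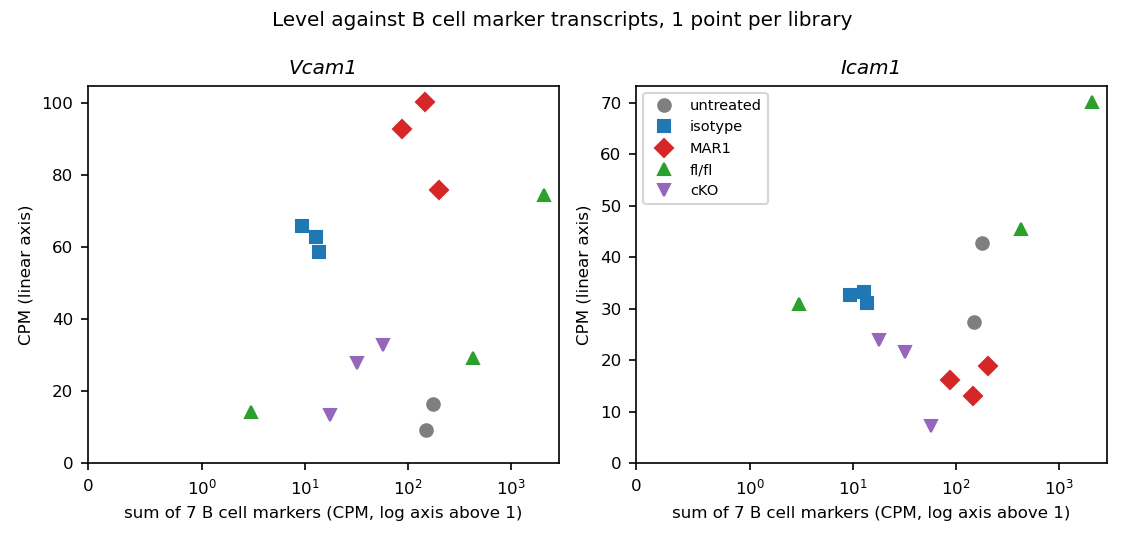
Level of Vcam1 and Icam1 in CPM (linear axes from 0) against the summed CPM of 7 B cell markers (log axis above 1), with 1 point per library of 14. In fl/fl both genes are highest in library 1, at 74.5 and 70.1 CPM, where B cell markers reach 2110 CPM; MAR1 libraries hold Vcam1 at 75.8 to 100.1 CPM with B cell markers of 86.8 to 202 CPM.

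Among the other vascular genes in cKO against fl/fl, 0 of 22 identity genes and 0 of 12 arterial, venous and capillary genes were called by edgeR, with medians of 0.19 and 0.53 against 0.03 over all genes. At an unadjusted p under 0.05 edgeR gave 4 and 2, and DESeq2 called 3 and 2, all higher. With RLE scaling 1 identity gene was called. Of 12 growth factors and regulators, Angpt2 rose 3.45-fold (adjusted p = 0.0057) and Vegfb fell 5.25-fold (0.0085). Angpt2 was thus called higher in both experiments, but the control arms also differed in it. In fl/fl against isotype, Angpt2 was called 3.07-fold lower (edgeR, adjusted p = 0.035) and Vegfb 4.92-fold higher (0.036), the reverse of their changes in cKO. Nrp2 was also called lower there (1.97-fold, 0.045). Of 12 leukocyte ligands 6 fell, among them Itgal (16.7-fold, adjusted p = 0.017), Itgb7 (5.97-fold, 0.0092) and Itgb2 (5.65-fold, 0.026). Of 16 inducers 4 fell: Relb (2.77-fold, 0.039), Nfkbia (2.6-fold, 0.024), Tnfrsf1b (2.37-fold, 0.035) and Rela (2.12-fold, 0.029). In this comparison 18.7% of all genes were called, so the counts of inducers and of growth factors and regulators were near that share. Itgal and Itgb2 together encode the integrin that binds ICAM-1. These genes are expressed by lymphocytes, whose markers were high in fl/fl libraries 1 and 2, and their part was not tested. Without those libraries edgeR called 0 of 12 ligands, 0 of 16 inducers and 0 of 12 growth factors and regulators, and 3.08% of all genes. That fit holds 1 fl/fl library, which is assumed to vary like the other groups, so the lost calls do not show where these differences came from. Lymphatic endothelial markers gave 1 higher of 7, Reln (3.29-fold, 0.037), and 1 lower, Lyve1 (6.78-fold, 0.013), which macrophages also express.

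Whether the genotype effect differed from the antibody effect was tested as an interaction. It gave 0 of 10 members by edgeR, against 7.96% of all genes, and 4 at an unadjusted p under 0.05. Those 4 were Kdr (2.03 ± 0.68, adjusted p = 0.075), Ackr1 (1.89 ± 0.59, 0.061), Sele (3.57 ± 1.41, 0.11) and Plvap (1.76 ± 0.73, 0.12), each with a lower mean with MAR1 and a smaller fall, or none, in the cKO mean. Over all genes the median log2 value of the interaction was 0.41, so most genes had positive values. DESeq2 also called 0 members. Without untreated library 2, or with the untreated libraries summed, 5 passed, these 4 and Cdh5 (1.95, adjusted p = 0.045), with Sele at 0.049 in the latter and only just under the threshold in the former. The untreated libraries do not enter this contrast. Both settings changed the reference library of the TMM scaling from cKO 2 to MAR1 3. Each moved the interaction values of all genes up by a median of 0.45. Changing the reference alone, however, gave at most 2 members. With each of the 14 libraries as the reference, Pecam1 was called higher in both experiments and Ackr1 lower with MAR1, whereas Cdh5 and Plvap were called with 9 of 14, Kdr with 13 and Icam1 in cKO with 11.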

How the data were processed

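Each deposited value is an estimated count of reads per gene symbol, as the authors produced it before any scaling. Salmon 1.2.1, DESeq2 1.44.0 and GRCm39 appear, without their roles, in the submitters' processing notes. The entry without a gene name (0.0137% to 0.913% of counts) was left out. Counts were rounded and fitted in edgeR 4.0.16 (R 4.3.3) as 5 group means over 14 libraries, with filterByExpr, TMM scaling and two-sided robust quasi-likelihood tests, adjusted by Benjamini-Hochberg over 20939 genes (9 residual degrees of freedom). The SE is the log2 fold change divided by the square root of F. The p-values measure the spread between these libraries only.

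Members and lists were chosen with earlier results of these data known. Of each list, the text names up to 4 genes of smallest p per comparison; with MAR1, Fli1, Gja5, Angpt2, Il6 and Ifng were named after their values were seen. A gene that this rule names is not reported here. The ratios to Cdh5, the counts of lists under other settings and the choice of TMM reference were added after seeing the data. Alternatives were DESeq2 1.42.0, RLE scaling, another or no filter, subsets of groups, the replicate block, covariates (log2 receptor gene share; an endothelial score, the mean log2 CPM of the 22 other identity genes), thinning and each library left out. Figures used matplotlib.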

Additional observations from a re-analysis of the deposited data

How the results depend on the processing

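The counts of members called were recomputed under 40 other settings. In MAR1 against isotype (5 in the fit reported) there were 2 with RLE scaling, 3 with DESeq2, 8 with only the compared groups, 0 with the receptor gene share as a covariate, 2 with an endothelial score as a covariate, 3 after thinning, and 2 to 7 leaving out each library. In cKO against fl/fl (2) there were 0 with only the compared groups, with the receptor gene share and without fl/fl libraries 1 and 2, 1 with the untreated libraries summed, and 0 to 3 leaving out each library. In isotype against untreated (0) there was 1, Vcam1, with DESeq2, no filter, only the compared groups or without fl/fl libraries 1 and 2, and 0 to 1 leaving out each library. In the interaction (0) there was 1 with the receptor gene share, 5 with the untreated libraries summed and 0 to 5 leaving out each library. The counts for fl/fl against untreated and against isotype were 0 throughout. With the replicate number as a block, 5 members were called in MAR1 against isotype and 2 in cKO against fl/fl, and 0 in each other comparison. The numbers do not pair the mice, since same-numbered deviations from the group means correlated at -0.236 to 0.087. With other TMM reference libraries, the counts were 1 or 2 in cKO against fl/fl, 0 or 1 in isotype against untreated and 0 to 2 in the interaction. In MAR1 against isotype 3 members were called with either untreated library as the reference. Of 14 references, Pecam1 and Ackr1 were called there with 14, Kdr with 13, and Cdh5 and Plvap with 9. Icam1 and Sele, uncalled in the fit reported, were called there with 3 and 2. Changing the reference moved the median of all genes by up to 0.44 in MAR1 against isotype and 0.45 in cKO against fl/fl.

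Among the 17 differences with an unadjusted p under 0.05, 4 changed sign under some setting. With the endothelial score as a covariate, Cdh5 was 0.32 and Plvap 0.26 in MAR1 against isotype, and Plvap -0.12 in the interaction. With the receptor gene share as a covariate, Pecam1 was -0.62 in cKO against fl/fl. The adjusted p ranged from 2e-05 to 0.63 for Ackr1 and from 4.4e-10 to 0.9 for Pecam1 with MAR1 (each called under 38 of 39 settings), from 0.0029 to 0.88 for Kdr (31), 0.0018 to 0.77 for Cdh5 (23) and 0.0087 to 0.77 for Plvap (21). In cKO against fl/fl it ranged from 0.00075 to 0.85 for Pecam1 (36 of 40) and from 0.008 to 0.67 for Icam1 (28), and for Vcam1 in isotype against untreated from 0.0034 to 0.35 (11). Of the other 43 differences, which were not called, 33 changed sign and 4 were called under at least 1 setting, so a direction given for their ranges describes these libraries only. Groups of 2 or 3 mice, and 5.73 to 10.6 M counts with MAR1, limit what could be detected.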
